A study of Mus musculus with 6 samples.

Results

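Kit and Cd34 double-positive hematopoietic progenitors were examined in single-cell RNA sequencing data of the healing rotator cuff enthesis, the zone where tendon meets bone. A quality barcode was a cell barcode that held at least 1000 unique molecular identifiers (UMIs, each a counted RNA molecule) from no fewer than 200 genes and took no more than 10% of these UMIs from mitochondrial genes. Progenitors were quality barcodes with at least 1 UMI of each of Kit, Cd34 and Ptprc (the leukocyte antigen CD45). They also had at most 1 UMI of the endothelial genes Pecam1 and Cdh5 together, none of the mast cell protease genes Cma1, Mcpt4 and Mcpt8, under 1% of UMIs from the secondary granule genes Ngp, Camp and Ltf, and under 0.5% from Col1a1, Col1a2 and Col3a1. These 14 genes were used to choose the cells, so none of them is given as a result about progenitors. The rule found 304 progenitors among 85339 quality barcodes in 6 libraries.

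The supraspinatus tendon of mice of 12 to 14 weeks was cut from the humerus and sutured back through bone tunnels, and the entheses were collected at 7 days post injury (dpi). The 3 wild-type libraries came from C57BL/6 mice and the 3 Nlrp3-/- libraries from mice with a whole-body knockout of Nlrp3, whose strain background is not given in the sources used here. Both groups had the same injury and repair, and no group without injury was sequenced with them. Entheses were pooled before sequencing, there were n = 3 libraries per genotype, whether each came from 1 animal or several is not stated in the sources used here, and the p-values measure only the spread between libraries. The genotype field of the second and the third Nlrp3-/- libraries names other Nlrp genes, whereas their titles name Nlrp3, and no Nlrp3 UMI was found in the progenitors of any of the 3. Every Nlrp3-/- library held Xist and every wild-type library held transcripts of the Y chromosome, so genotype and sex cannot be told apart in any comparison between the groups. Libraries held 97042713 to 134901999 UMIs in all, and their quality barcodes numbered 9903 to 22048. The first Nlrp3-/- library had the most quality barcodes, at a median of 2069 UMIs each, against 4874 to 7421 UMIs in the others.

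Hematopoietic stem and progenitor cells carry the receptor tyrosine kinase Kit, which binds stem cell factor, and many of them carry the surface sialomucin Cd34. Along the granulocyte and monocyte route they begin to transcribe the genes of the primary (azurophil) granules, among them myeloperoxidase (Mpo), neutrophil elastase (Elane), proteinase 3 (Prtn3) and cathepsin G (Ctsg), and switch these off again as neutrophils mature. They reside mainly in bone marrow.

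Progenitors were found in every library and made up less than 1% of the quality barcodes in each. There were 18, 26 and 65 in the wild-type libraries, which was 0.142%, 0.168% and 0.656% of quality barcodes. There were 29, 118 and 48 in the Nlrp3-/- libraries, or 0.132%, 0.998% and 0.358%. The groups overlapped, since the third wild-type library lay above the first and the third Nlrp3-/- libraries and below the second. The order at the low end depended on the denominator. As a share of barcodes with Ptprc the values were 0.226%, 0.304% and 0.994% in wild-type and 0.358%, 1.61% and 0.615% in Nlrp3-/- libraries, which also overlapped, with the lowest in the first wild-type library. The means were 0.322 ± 0.290% in wild-type and 0.496 ± 0.449% in Nlrp3-/- (SD, n = 3 libraries), a log2 ratio of 0.62 with a p of 0.7 in an exact two-sided permutation test, whose smallest possible p is 0.1. For the share of barcodes with Ptprc the means were 0.508 ± 0.423% and 0.861 ± 0.661% (exact permutation p = 0.5). One library set the sign of the ratio, for it was -0.40 without the second Nlrp3-/- library and 1.68 without the third wild-type library.

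**Figure D1:**
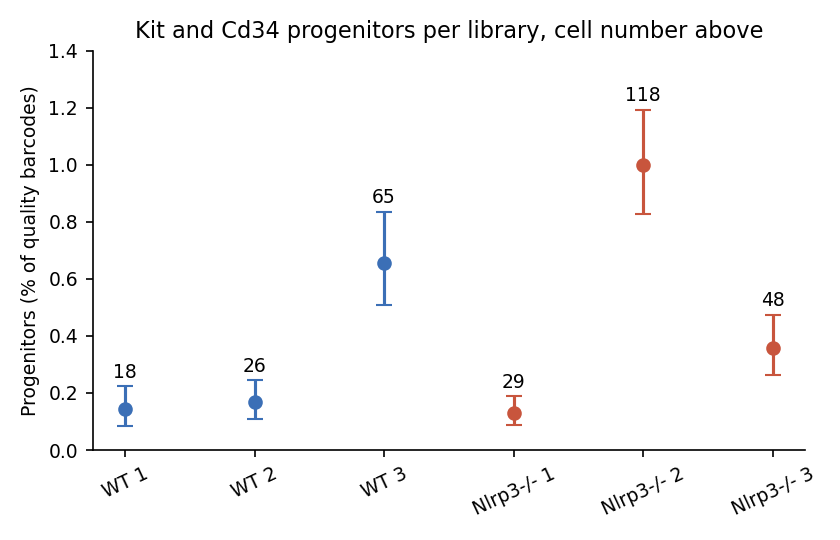
Progenitors as a percentage of quality barcodes in each library, with exact (Clopper-Pearson) 95% binomial intervals as bars and the number of cells above. The second Nlrp3-/- library, with 118 cells, and the third wild-type library, with 65, stood above the other 4, and the intervals cover counting error only.

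The rule selected deeply sequenced cells. Median UMIs per progenitor were 25424, 14593.5 and 19608 in the wild-type libraries and 10355, 17730.5 and 13709.5 in the Nlrp3-/- libraries, which was 2.34 to 5.26 times the median of the other Ptprc-positive barcodes of the same library. Since 1 UMI each of 3 modest transcripts was required, shallow progenitors were missed, and the shares are of cells that passed the rule and not of all progenitors. When each barcode was first thinned to 5000 UMIs and shallower barcodes were left out, 79 progenitors remained, with a log2 ratio of 0.47 (exact permutation p = 0.6). Between 1 and 10 progenitors per library were among the barcodes with the highest doublet scores, which was 30.8% of the progenitors in the second wild-type library (8 of 26, against 12.4% of its quality barcodes) and 2.08% to 11.1% in the others. Between 0 and 4 progenitors per library had a barcode sequence that also occurred in another library.

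The members near the edge of the rule were described without a test. Of the 304 progenitors, 52 (17.1%) had exactly 1 Kit and 1 Cd34 UMI and 118 (38.8%) had at least 2 of each. The 52 cells at the edge held 142 UMIs of Myb per 1e+06 UMIs (CPM), a transcription factor needed for blood formation, and the 118 cells held 327 CPM. For Mpo the values were 2089 and 3372 CPM. These sums pool the libraries, and the second Nlrp3-/- library gave 13 of the 52 and 52 of the 118 cells, so the number of UMIs and the library makeup cannot be told apart in them. Just outside the rule, 82 barcodes that failed only the mast cell limit had 3806 CPM of Mpo and 392 CPM of Myb (medians over the 6 libraries). The 86 barcodes that failed only Ptprc had 2506 CPM of Mpo and 244 CPM of Myb. The Mpo medians of both excluded groups lay within the range over libraries of the progenitors, 1817 to 4480 CPM. The 204 barcodes that failed only the endothelial limit had 536 CPM of Mpo and 281 CPM of Kdr, an endothelial receptor that was between 0 and 1.82 CPM in progenitors. The 19 barcodes outside only by secondary granule share carried 42534 CPM of S100a8 (median of the 5 libraries that held any), the mature neutrophil calcium-binding protein.

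The leading genes of the progenitors included primary granule genes (Ctsg, Mpo and Prtn3), regulators of early blood cells (Myb, Cdk6 and Lmo2) and genes of metabolism and growth. Genes are ordered here by the median over libraries of the log2 ratio to the 46000 other Ptprc-positive barcodes (CPM plus 5), a description without a test because the same cells were chosen on their transcripts. Adgrg1, an adhesion receptor of stem and progenitor cells, stood first with a median ratio of 2.72. Its levels were 75.8, 205 and 150 CPM in the wild-type libraries and 126, 96.2 and 111 CPM in the Nlrp3-/- libraries. Ctsg followed at 2.61, then Phgdh, which opens serine synthesis, at 2.60, Mpo at 2.36 and Myb at 2.33. Mpo stood at 2156, 2079 and 2097 CPM in wild-type and at 1817, 4480 and 2733 CPM in Nlrp3-/- progenitors. The 3 wild-type values lay close together and the Nlrp3-/- values spread to both sides of them. Myb stood at 142, 157 and 256 CPM and at 268, 335 and 255 CPM. The next genes were Snhg4, a small nucleolar RNA host gene (2.17), Cdk6, a cell cycle kinase of progenitors (2.12), Lmo2, a bridging factor of early blood transcription complexes (2.09), and the histone variant gene H2afy (2.04). The other 11 of the 20 leading genes had ratios of 1.66 to 2.02. They were Prtn3, Ms4a3, which marks granulocyte and monocyte progenitors, Npm1, a nucleolar protein of ribosome assembly, Dut, which supplies DNA synthesis, and Cst7, Syce2, Ramp1, Cdca7, Bzw2, Pdcd4 and Ptprcap.

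By the median over libraries, progenitors held more Adgrg1, Myb and Cdk6 than barcodes with either Kit or Cd34 alone. They held less Mpo and Elane than barcodes with Kit alone, as shown in the plot of levels by Kit and Cd34 detection. Against Kit alone the ranges over libraries overlapped for Mpo (1817 to 4480 against 2119 to 4759 CPM), Myb (142 to 335 against 115 to 289 CPM), Cdk6 and Elane. For Adgrg1 they did not (75.8 to 205 against 9.57 to 51.6 CPM). Mpo had a median of 2126 CPM (range 1817 to 4480) in progenitors. It was 2886 CPM in 905 barcodes that met the other limits with Kit but no Cd34 UMI, 937 CPM in 567 with Cd34 but no Kit, and 121 CPM in 27663 with neither. Elane was 2855 CPM in progenitors and 6984 CPM in the Kit-only barcodes, where S100a8 was also higher, at 5085 against 1026 CPM. Ctsg and Prtn3 had higher medians with Kit alone as well, at 2973 and 5481 CPM against 2662 and 3653 CPM in progenitors. Adgrg1 went the other way, with 119 CPM in progenitors against 36.4 CPM in Kit-only and 37.4 CPM in Cd34-only barcodes. It was 190 CPM in the barcodes that failed only Ptprc and 136 CPM in those that failed only the mast cell limit. Myb was 255 CPM in progenitors, 192 CPM with Kit alone and 78.9 CPM with Cd34 alone. Among the other populations, Mpo was highest, at 3550 CPM, in 223 Ptprc-positive barcodes set apart by at least 2 UMIs of Cma1, Mcpt4 and Mcpt8 together, and was 425 CPM in all other Ptprc-positive barcodes, 152 CPM in monocytes and macrophages and 23.4 CPM in mesenchymal cells. Those 223 barcodes also held Kit in 33.3% to 57.4% and Cd34 in 31.0% to 46.3% of cells per library, so they are called by their rule and not by a cell type. The level of Mpo in near-empty droplets, which hold free RNA, was 262 CPM. Adgrg1 was no more abundant in progenitors than in endothelial cells, which had a median of 122 CPM.

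**Figure D2:**
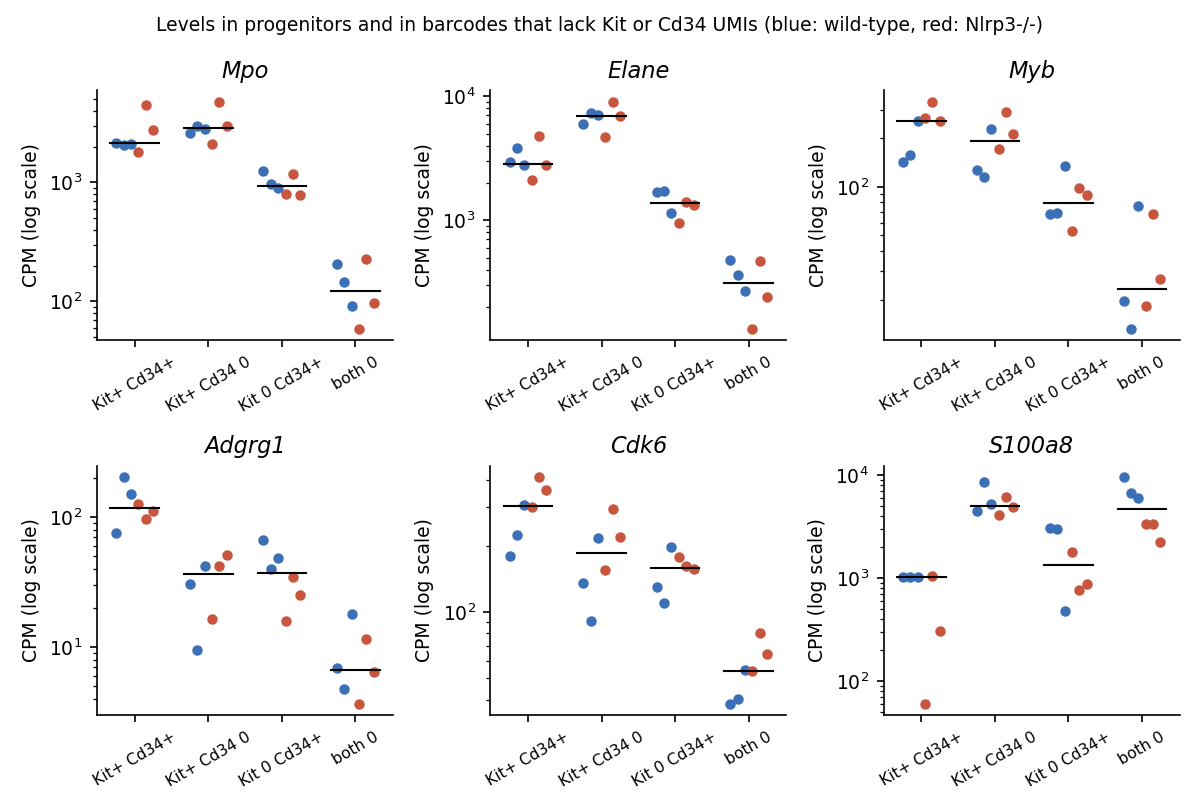
Level of 6 genes (CPM, log scale) in each library for progenitors and for barcodes that met the same limits but lacked UMIs of Cd34, of Kit or of both. Each point is 1 library (blue wild-type, red Nlrp3-/-) and the line is the median. Adgrg1, Myb and Cdk6 had their highest median with both genes detected, whereas Elane and S100a8 had higher medians in Kit-positive barcodes without Cd34.

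Free RNA gives UMIs in cells that do not make a transcript, so detection was set against mesenchymal cells. Their median depth was 1800 to 16616 UMIs per library. With each cell thinned to 1000 UMIs, no mesenchymal cell of any library held Ptprc, whereas every progenitor was required to hold it. Barcodes with much leukocyte RNA, free or from doublets, may thus be missing from the mesenchymal cells. Their shares of leukocyte genes such as Mpo, Myb and Flt3 may therefore be too low as a measure of free RNA. Of the 304 progenitors, 275 had a UMI of Lmo2, 261 of Cdk6, 248 of Myb and 200 of Mpo. Mpo was detected in 52.1% to 78.8% of progenitors per library and in 10.0% to 18.2% of mesenchymal cells. With each cell thinned to 1000 UMIs the shares were 31.0% to 66.1% and 0.877% to 7.18%. Myb was detected in 55.2% to 89.8% against 1.13% to 4.04%, and Flt3, a receptor of multipotent and lymphoid-primed progenitors, in 15.4% to 44.6% against 0.240% to 0.633%. For each of these 3 genes the lowest share in progenitors was above the highest in mesenchymal cells. At 1000 UMIs per cell this also held for Myb (15.4% to 27.1% against 0.0365% to 2.04%) but not for Flt3, which was found in 0 to 14.6% of progenitors and 0 to 0.355% of mesenchymal cells. For Hlf the share was higher in progenitors than in mesenchymal cells within each of the 6 libraries, although the ranges over libraries overlapped, at 16.7% to 30.8% against 1.13% to 23.4%. The 23.4% came from the third wild-type library, whose mesenchymal cells held Flt3 in 0.255% and Myb in 3.18%. Whether mesenchymal cells make Hlf themselves was not tested, so their Hlf share is not a measure of free RNA. At 1000 UMIs per cell Hlf was higher in 5 libraries and found in none of the 48 progenitors of the third Nlrp3-/- library. Pf4, the platelet chemokine, was detected in 12.7% to 34.6% of progenitors and 6.43% to 36.3% of mesenchymal cells. Within libraries its share was higher in progenitors in 5 of the 6 and lower in the first Nlrp3-/- library (13.8% against 36.3%), and at 1000 UMIs per cell it was 0 to 11.5% against 0.828% to 26.0%, so its detection did not set progenitors apart.

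Early regulators and growth genes were higher in progenitors than in the other Ptprc-positive barcodes, and the genes of mature myeloid cells were lower. Of 12 progenitor transcription factors, 8 were higher in all 6 libraries and none was lower in all 6, with a median log2 ratio of 0.88. Among all 15976 detected genes that the rule did not use, 18.2% were higher and 21.9% lower in all 6 libraries (median -0.03), and among the 6471 of them tested below the shares were 38.6% and 17.7% (median 0.21). Of 12 S phase genes 11 were higher in every library (median 1.15), of 10 G2M genes 7 (0.42), and of 8 genes of ribosome and nucleolus assembly all 8 (1.25). Within the stem cell list of 10 genes, 3 were higher in all libraries and 3 lower. Hlf and Hoxa9, transcription factors of stem cells, stood at 2.00 and 1.74, while Ly6a, the antigen Sca-1, stood at -1.16. All 9 mature neutrophil genes were lower in every library (median -4.42), as were all 8 tissue macrophage genes (-3.26), all 8 mesenchymal genes (-3.97) and all 11 interferon-stimulated genes found in the files (-1.55). The limits on secondary granule and collagen transcripts held for progenitors and not for these other barcodes, so the low neutrophil and mesenchymal levels were partly set by the choice of cells. Against the 27663 barcodes that met the same limits without Kit or Cd34, the mature neutrophil sum was 197 to 3237 CPM in progenitors and 6510 to 26050 CPM, the mesenchymal sum 95.6 to 384 and 904 to 1581 CPM, the tissue macrophage sum 351 to 627 and 7590 to 14901 CPM, and the interferon-stimulated sum 594 to 1456 and 1543 to 3745 CPM. Of 20 cytokine receptors 14 were lower in every library (-0.78). In the primary granule list 6 of 9 were higher and 2 lower, the latter being Cebpe (-1.26), a transcription factor of late granulocyte maturation, and Fcnb (-2.85), a ficolin of immature neutrophils. Irf8, which directs monocytes and dendritic cells, was the 1 gene of the 10 in the monocyte list that was higher in all libraries (0.55).

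At equal depth the same order was seen. With each cell thinned to 1000 UMIs, 37.9% to 74.6% of progenitors per library had at least 2 UMIs of the primary granule list, against at most 17.3% of the other Ptprc-positive barcodes. For the S phase list the shares were 34.5% to 66.7% against at most 16.5%. Up to 33.3% of progenitors had at least 2 UMIs of the mature neutrophil list, and none did in the first Nlrp3-/- library.

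The progenitors were a mixture of cells with and without granule transcripts. Mpo was at 0 in 104 cells (34.2%), made up at least 0.1% of UMIs in 152 (50%) and lay between in 48 (15.8%). All 4 of Mpo, Elane, Prtn3 and Ctsg were detected in 156 cells and all 4 were at 0 in 45. The share of a cell's UMIs from these 4 genes had library medians of 0.672%, 0.050% and 0.179% in wild-type and 0.071%, 1.36% and 0.064% in Nlrp3-/- progenitors, with a highest value of 15.7%. The plot of granule transcripts in single progenitors shows both ends in every library. Depth moved with this split, as the median was 8775 UMIs in cells without Mpo and 23072.5 UMIs in cells with at least 0.1%, and its part in the split was not tested.

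**Figure D3:**
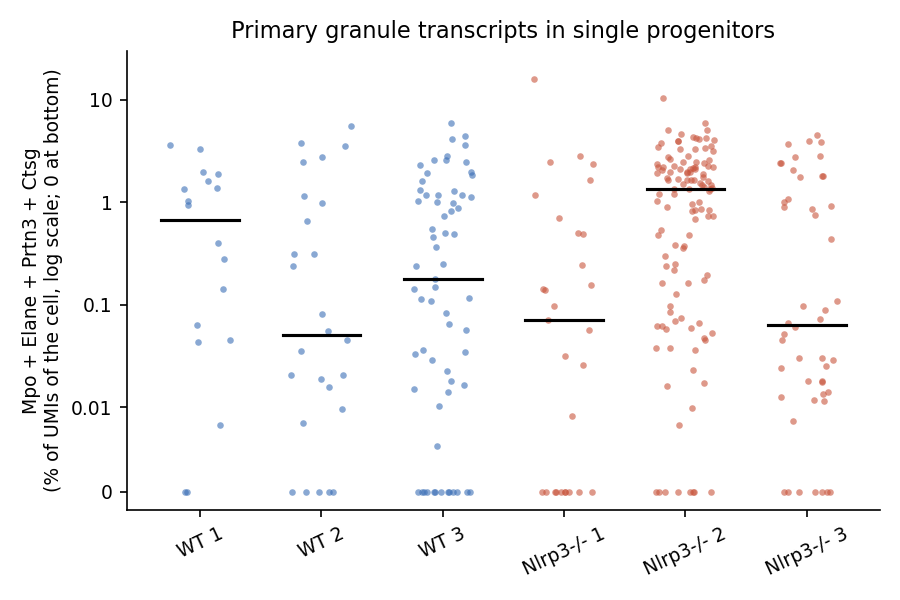
Each point is 1 progenitor, placed by the summed share of Mpo, Elane, Prtn3 and Ctsg among its UMIs (%, log scale, with cells at 0 at the bottom), and the line is the library's median. Every library held cells at 0 and cells above 1%, and the median was highest, at 1.36%, in the second Nlrp3-/- library.

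Cells without Mpo held more stem cell and antigen presentation transcripts, and cells with Mpo more of the early granulocyte and monocyte genes. Summed over the 10 stem cell genes, the level was 467 CPM in the 104 cells without Mpo and 59.5 CPM in the 152 cells with at least 0.1%. It was higher in the former in each of the 6 libraries, at 194 to 747 CPM against 29.5 to 77.1 CPM. Over all libraries Hlf was 79.7 against 11.9 CPM, Meis1 111 against 10.8 CPM and Adgrg1 267 against 53.6 CPM. In the first Nlrp3-/- library these 3 genes went the other way, at 9.72 against 23.9 CPM for both Hlf and Meis1 and 29.2 against 59.9 CPM for Adgrg1. The lymphoid-primed list was 666 against 219 CPM over all libraries, with Flt3 at 86.7 against 4.33 CPM and Dntt, the polymerase that adds bases to rearranging antigen receptor genes, at 197 against 3.25 CPM. The list was lower without Mpo in the first wild-type library (127 against 180 CPM), where Dntt was 0 against 25.7 CPM. In the second wild-type library Flt3 was 7.62 against 8.68 CPM and Dntt was at 0 in both classes. The MHC class II list was 12490 against 136 CPM, and higher without Mpo in every library. A part of the cells carried this sum, since the list made up at least 1% of UMIs in 35 of the 104 cells. In the first wild-type library 1 progenitor held 384 of 429 UMIs of the list, while in the first Nlrp3-/- library the top cell held 385 of 3311. In the other direction Ms4a3 was 11.4 against 1018 CPM and the primary granule list 240 against 22651 CPM, of which Mpo is a member. Over all libraries, cycling genes differed less between these classes, with the S phase list at 1523 against 1774 CPM and the G2M list at 1141 against 1573 CPM. Myb was 195 against 308 CPM over all libraries but was higher without Mpo in the 3 wild-type libraries. The classes were cut from a measured transcript, so these values carry no test.

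The granule genes also rose and fell together from cell to cell. Within libraries, Spearman's rho between the shares of Mpo and Ctsg was 0.87 to 0.95 across cells, between Mpo and Prtn3 0.84 to 0.96, between Mpo and Elane 0.78 to 0.94, and between Mpo and Ms4a3 0.81 to 0.88. The cells of a library share its depth and free RNA, and Mpo also went with total UMIs (rho 0.50 to 0.76), so the values are given as a description. Between Mpo and Hlf rho was -0.48 to 0.15. Of 74 cells with a Hlf UMI, 44 also had Mpo, which was found in 200 of all 304 progenitors (65.8%). Gata1, a factor of red cell and platelet precursors, was found in 14 cells (4.61%) and Flt3 in 86 (28.3%), and no cell had both. Cells with Gata1 were too few to read an exclusion from this.

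Because Mpo, Elane, Prtn3 and Ctsg moved together across cells, the 250 bases before their starts are shown, 5′ to 3′ on the gene's strand, from RefSeq on GRCm38.p6. They lie at chr11:87793534-87793783 (plus strand), chr10:79886062-79886311 (plus), chr10:79879417-79879666 (plus) and chr14:56102575-56102824 (minus). All 4 genes matched an entry by symbol. The GENCODE annotation that gave the other gene positions here starts Mpo at 87793581 and places Prtn3 at 79874476 to 79883174. By that annotation most of the Mpo stretch and all of the Prtn3 stretch lie inside the gene. Capitals mark GAGGAA, a core bound by the myeloid factor PU.1.
Mpo: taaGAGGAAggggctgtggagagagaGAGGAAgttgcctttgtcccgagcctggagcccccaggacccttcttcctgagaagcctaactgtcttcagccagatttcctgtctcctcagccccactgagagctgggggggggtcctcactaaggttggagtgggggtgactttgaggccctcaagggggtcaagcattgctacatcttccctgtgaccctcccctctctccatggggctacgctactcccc
Elane: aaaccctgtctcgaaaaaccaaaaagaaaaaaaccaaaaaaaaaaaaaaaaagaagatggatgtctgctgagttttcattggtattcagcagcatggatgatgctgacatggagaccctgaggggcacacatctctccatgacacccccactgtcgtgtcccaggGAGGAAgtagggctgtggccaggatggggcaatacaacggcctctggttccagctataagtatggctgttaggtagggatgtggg
Prtn3: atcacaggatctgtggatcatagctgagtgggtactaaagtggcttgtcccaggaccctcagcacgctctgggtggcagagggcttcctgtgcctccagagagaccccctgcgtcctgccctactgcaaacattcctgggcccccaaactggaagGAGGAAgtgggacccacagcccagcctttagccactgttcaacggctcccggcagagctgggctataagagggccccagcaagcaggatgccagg
Ctsg: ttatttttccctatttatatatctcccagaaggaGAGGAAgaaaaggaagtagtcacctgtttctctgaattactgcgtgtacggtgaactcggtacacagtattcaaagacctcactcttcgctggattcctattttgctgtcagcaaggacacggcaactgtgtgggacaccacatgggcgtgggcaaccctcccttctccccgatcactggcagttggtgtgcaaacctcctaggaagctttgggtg
GAGGAA was found on either strand 2 times before Mpo and 1 time before each of Elane, Prtn3 and Ctsg, and 23.3% of 32851 promoters of the same length held it. AACNG, a core of MYB sites, was present before all 4, but 74.2% of promoters held it. TTGCNNAA, a form of the C/EBP site, was present before none of them and in 9.56% of promoters, and TGTGGT, a RUNX core, was found before Ctsg and in 14.05%. None of the 4 motifs contains another, both strands were searched, and a match is a description of the sequence only.

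Subsets whose size differed between libraries carried the transcripts of other lineages. In 38 progenitors the MHC class II genes, which present antigen, made up at least 1% of UMIs. Of these, 35 had no Mpo and none had Mpo at 0.1% or above. They numbered 1, 3 and 5 in the wild-type libraries and 12, 6 and 11 in the Nlrp3-/- libraries. As shares of the progenitors these were 5.56%, 11.5% and 7.69% against 41.4%, 5.08% and 22.9%, which overlapped, with the lowest in the second Nlrp3-/- library. Their median depth was 7401 UMIs against 18597 UMIs in the other progenitors. In the first Nlrp3-/- library the 12 cells without Mpo held 31440 CPM of the MHC class II list. Myb was 48.6 CPM in these 12, against 347 CPM in that library's cells with Mpo at 0.1% or above, while Flt3 was 77.8 against 0 CPM. Whether all cells that met the rule are progenitors was not tested. The stem cell list reached 0.05% of UMIs in 50 cells, of which 42 had no Mpo. Their median depth was 8218.5 UMIs against 19289 UMIs in the others, and its part in this was not tested. In some libraries a single cell held most UMIs of a rarer lineage. In the first Nlrp3-/- library 1 cell held 420 of 433 erythroid UMIs, and in the first wild-type library 1 cell held 176 of 192 UMIs of the B lineage list. In the third wild-type library 1 cell held 1834 of 2331 UMIs of the megakaryocyte list. Elsewhere the sums were more spread. The top cell held 27 of 116 erythroid UMIs in the second wild-type library and 22 of 116 B lineage UMIs in the second Nlrp3-/- library. It held 8 of 37 megakaryocyte UMIs in the third Nlrp3-/- library.

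UMIs were next summed over the progenitors of each library and compared between genotypes with edgeR's quasi-likelihood test, Benjamini-Hochberg adjusted over 6481 genes, to ask what differed in progenitors that lacked Nlrp3. Only 13 genes were called at an adjusted p under 0.05, 4 higher and 9 lower in Nlrp3-/- progenitors, which is 0.201% of the genes tested. At an unadjusted p under 0.05 there were 608 genes. The CPM of 1125 genes (17.4%) did not overlap between the groups. The number called was 51 without the third wild-type library and 10 to 16 when any other library was left out.

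Nlrp3, the sensor protein of the inflammasome (ENSMUSG00000032691, chr11:59541568-59566956 in mm10), was read first as a check of the labels. It was 35.9, 56.0 and 64.9 CPM in wild-type progenitors and 0 in all 3 Nlrp3-/- libraries. With a floor of 3 UMIs per library it was at least 11.6-fold lower in Nlrp3-/- (adjusted p = 0.0002, edgeR). The wild-type UMIs lay in 5 of 18, 8 of 26 and 26 of 65 progenitors. Xist, the RNA of the silenced X chromosome, was 1076, 1337 and 1029 CPM in Nlrp3-/- and 0 in wild-type progenitors, at least 233-fold higher. Tsix, its antisense transcript, which overlaps it, was 1.996, 0 and 0 CPM against 21.9, 36.9 and 21.2 CPM. From the Y chromosome, Ddx3y was at least 10.7-fold and Eif2s3y at least 8.73-fold lower in Nlrp3-/-, where both were at 0.

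Apart from Nlrp3, the autosomal genes that were called without overlap and had at least 50 CPM in the higher group were Tpm3-rs7, Uqcrq, Lgals1 and Pf4, and all 4 were lower in Nlrp3-/- progenitors. Tpm3-rs7, a tropomyosin-related sequence whose reads can be shared with Tpm3, was 192, 118 and 207 CPM in wild-type and 0, 2.74 and 1.33 CPM in Nlrp3-/- libraries, a log2 fold change of -6.43 (SE 0.40, adjusted p = 2.8e-06, edgeR). Uqcrq, a subunit of respiratory complex III, was 818, 728 and 529 CPM against 358, 311 and 334 CPM (-1.17, SE 0.20, adjusted p = 0.0327, edgeR). Neither gene overlapped between the groups. Uqcrq lies on chromosome 11 at 53427922 to 53430831, 6.11 Mb from Nlrp3. Lgals1, galectin 1, a sugar-binding protein, was 1465, 948 and 771 CPM against 445, 456 and 473 CPM (-1.33, SE 0.23, adjusted p = 0.0327, edgeR). The 3 Nlrp3-/- values were close together and below all wild-type values. The calls of Uqcrq and Lgals1 were lost when any single library other than the third wild-type library was left out, and their directions were kept.

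Pf4 was 146, 577 and 1604 CPM in wild-type and 10.9, 30.1 and 31.8 CPM in Nlrp3-/- progenitors (log2 fold change -4.95, SE 0.68, adjusted p = 0.0057, edgeR). The groups did not overlap, but the wild-type values differed from each other more than the Nlrp3-/- values did. A few cells carried the wild-type sums, with 69 of 73 Pf4 UMIs in 1 cell of the first library, 130 and 103 of 268 in 2 cells of the second and 1666 of 2100 in 1 cell of the third. Without the deepest 10% of the progenitors Pf4 stood at -3.75 on the log2 scale (adjusted p = 0.347), and without those with the highest doublet scores at -4.55 (adjusted p = 0.308, range over all alternatives 3.5e-94 to 0.347, edgeR or DESeq2). In the 6 other populations compared, the groups overlapped for Pf4.

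The other 4 calls, which like Tsix were named after their values were seen, were Mid1 and Gm8797, higher in Nlrp3-/-, and Wdfy1 and Gm42031, lower. Mid1, an X-linked ubiquitin ligase, was 7.98, 4.31 and 6.11 CPM in wild-type and 35.5, 31.0 and 30.5 CPM in Nlrp3-/- progenitors (2.24, SE 0.36). Wdfy1, an adaptor protein of endosomes, was 37.9, 43.1 and 45.1 CPM against 5.46, 11.9 and 17.2 CPM (-1.88, SE 0.31). The calls of Mid1 and Wdfy1, with adjusted p of 0.0217 and 0.0299 in edgeR, were lost under 8 and 9 of 13 alternatives. Gm8797 and Gm42031 are predicted genes without a known role, with log2 fold changes of 3.50 and -2.39. The call of Gm42031 was lost under 5 of 13 alternatives, and that of Tsix under 2 of 12. Of the 13 genes called, 11 also did not overlap between the groups in any of the 6 other populations, so their difference was also seen outside progenitors. The exceptions were Pf4 (none of 6) and Lgals1 (1 of 6, mesenchymal cells). The mean of Lgals1 was still lower in Nlrp3-/- in each of the 6. It was 1435 CPM in wild-type and 736 CPM in Nlrp3-/- B-lineage cells, and 539 and 498 CPM in granule-rich neutrophil-lineage cells. Its lower level was therefore not particular to progenitors. The 11 include Nlrp3, Xist, Tsix, Ddx3y and Eif2s3y. In progenitors 17.4% of all genes tested did not overlap, and this share is not given for the other populations. Those populations are not separate, since the other Ptprc-positive barcodes hold the neutrophil, monocyte and B-lineage ones.

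**Figure D4:**
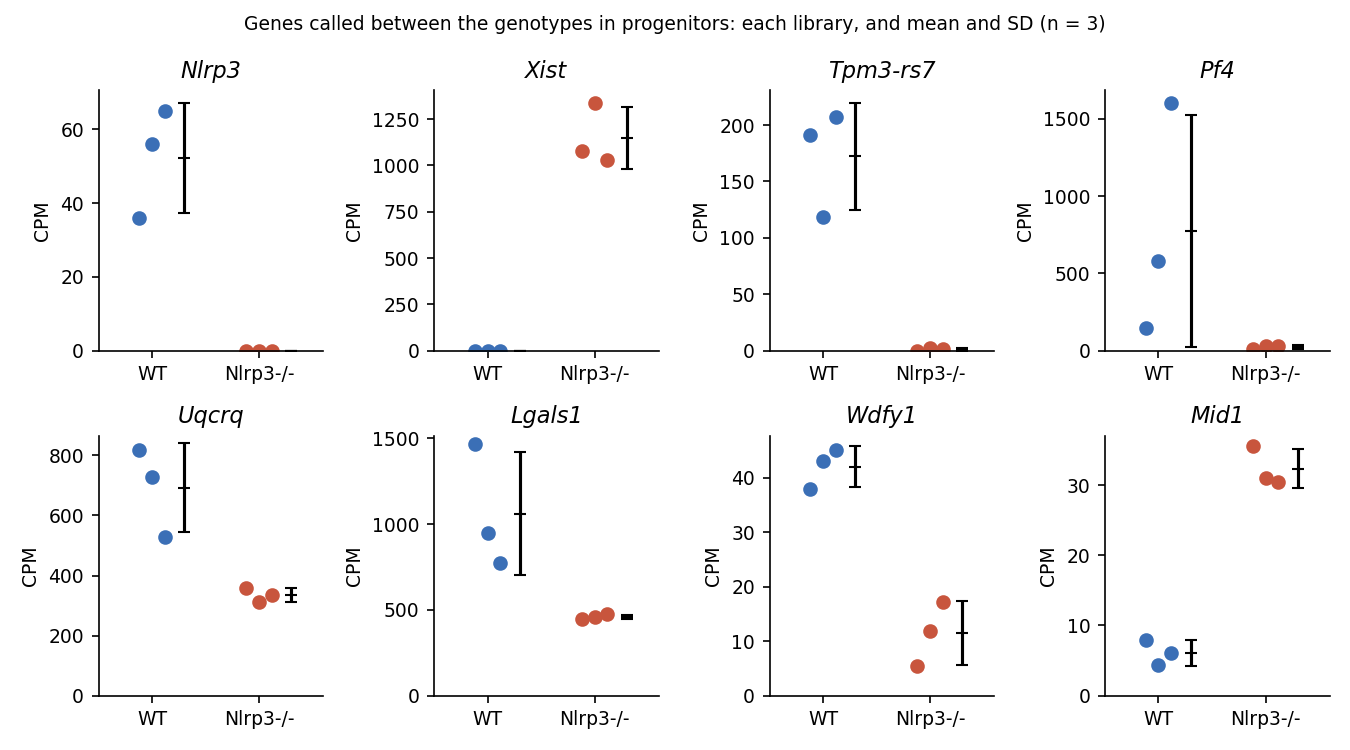
Levels (CPM) of 8 of the 13 genes called between the genotypes in progenitors. Points are libraries, and the bar to their right is the mean and SD (n = 3). Nlrp3 was 0 in all 3 Nlrp3-/- libraries and Xist in all 3 wild-type libraries, whereas the wild-type values of Pf4 ran from 146 to 1604 CPM.

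Since only 0.201% of all 6481 genes tested were called, lists of a few genes without a call differ little from that share. The values below therefore do not show that these genes were equal between the genotypes. Of the 12 progenitor transcription factors tested none was called, and their median log2 fold change was 0.14, against 0.01 over the 6471 genes tested that were not used by the rule. Myb had a log2 fold change of 0.51 (SE 0.21, adjusted p = 0.482, edgeR) and Cdk6 of 0.49 (SE 0.19, adjusted p = 0.456). Among 8 primary granule genes tested none was called and 7 had a positive fold change (median 0.30), as did 51.5% of all 6471 genes. Mpo had a log2 fold change of 0.39 (SE 0.24, adjusted p = 0.603, edgeR), and Elane, Prtn3 and Ctsg lay between -0.10 and 0.14. The 4 stem cell genes tested were all negative (median -0.48) and none was called, but Hlf and Ly6a had an unadjusted p under 0.05 in edgeR, as did 9.38% of all genes. The summed level of the 10 stem cell genes did not overlap, at 196, 287 and 170 CPM in wild-type and 156, 125 and 162 CPM in Nlrp3-/- progenitors. The same held for 7 of the 26 list sums (26.9%), of which 4 were higher and 3 lower in Nlrp3-/-, so nothing is read from it. S phase and G2M genes had medians of -0.14 and 0.07 with no calls among 12 and 10.

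The inflammasome and its inputs were examined in the same way. Apart from Nlrp3, none of the other 5 inflammasome genes tested was called. Pycard, the adaptor ASC, was 202, 203 and 195 CPM in wild-type and 295, 220 and 269 CPM in Nlrp3-/- progenitors (0.26, SE 0.18, adjusted p = 0.643, edgeR). Its groups did not overlap, as was true of 17.4% of all genes tested. Il1b, the cytokine that inflammasomes release, was 114, 312 and 257 CPM against 686, 127 and 305 CPM (0.55, SE 0.49, adjusted p = 0.757, edgeR), and its groups overlapped. Casp1, the protease of the complex, had a log2 fold change of -0.23. None of 15 cytokine receptors tested was called, and 12 had a positive fold change (median 0.10). Ifngr1, the interferon-γ receptor, was 104, 112 and 156 CPM against 205, 248 and 206 CPM (0.70, SE 0.19, adjusted p = 0.267, edgeR). All 8 adhesion and retention genes tested had a positive fold change (median 0.18), against 51.5% of all genes, and none was called. The largest, Cd44, a hyaluronan receptor, was 122, 90.5 and 166 CPM against 219, 195 and 221 CPM (0.60, SE 0.20, adjusted p = 0.388, edgeR).

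**Figure D5:**
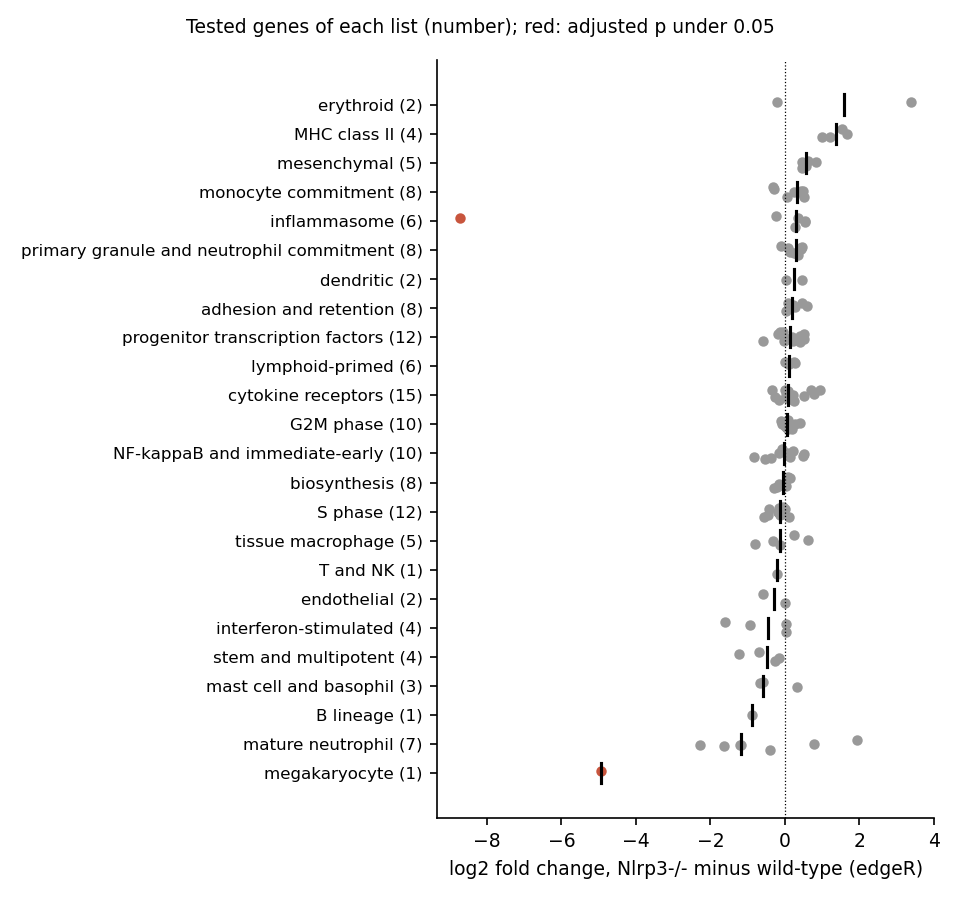
Log2 fold change (Nlrp3-/- minus wild-type, edgeR) of each tested gene, by list, with the number tested in parentheses and the median as a bar. Red marks an adjusted p under 0.05, which only Nlrp3 and Pf4 reached here (the sex-linked list is not drawn), and the place of Nlrp3, at 0 in all Nlrp3-/- libraries, depends on the prior count.

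Genes of mature neutrophils and of antigen presentation varied widely between libraries of 1 genotype. The mature neutrophil list had a median log2 fold change of -1.19 over 7 tested genes, of which none was called and 5 had an unadjusted p under 0.05 (9.38% of all genes). S100a8 was 1038, 1026 and 1027 CPM in wild-type and 60.1, 1046 and 305 CPM in Nlrp3-/- progenitors, so that the second Nlrp3-/- library was level with the wild-type libraries (-1.20, SE 0.58, adjusted p = 0.538, edgeR). MHC class II genes had a median of 1.38 over 4 tested, all positive, none called, 3 with an unadjusted p under 0.05. H2-Eb1, a chain of the class II complex, was 144, 661 and 474 CPM against 2521, 335 and 1554 CPM (1.68, SE 0.59, adjusted p = 0.408, edgeR), with the second Nlrp3-/- library inside the wild-type range.

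The share of progenitors that held at least 2 UMIs of a list at 1000 UMIs per cell was compared for 26 lists. In 3 lists the groups did not overlap, and each had the smallest exact permutation p the design allows, 0.1, which was 0.8 after Benjamini-Hochberg adjustment over the lists. Monocyte commitment genes were found in 16.7%, 30.8% and 29.2% of wild-type and 37.9%, 37.3% and 37.5% of Nlrp3-/- progenitors. Megakaryocyte genes were found in 5.56%, 7.69% and 4.62% against 0, 0.847% and 0. The sex-linked list was the other. The libraries held 18, 26 and 65 against 29, 118 and 48 progenitors, so a few cells set the megakaryocyte shares. In every library the other Ptprc-positive barcodes met both lists more often than progenitors did. Their shares were 37.3% to 45.2% for the monocyte list and 5.34% to 16.9% for the megakaryocyte list. For the monocyte list the groups overlapped without thinning, at 88.9%, 96.2% and 80.0% against 89.7%, 90.7% and 85.4%, and also at 4000 UMIs per cell and with at least 2 UMIs each of Kit and Cd34. The megakaryocyte list overlapped without thinning, at 4000 UMIs, at 1 UMI of the list and without the highest doublet scores, and no cell met it in any library with the stricter gate. With that gate, which left 4 to 52 cells per library, S phase genes were instead apart, at 100%, 66.7% and 52.0% against 38.5%, 36.5% and 44.4%, as were G2M genes, at 0, 16.7% and 16.0% against 38.5%, 40.4% and 33.3% (exact permutation p = 0.1 each, 0.867 after adjustment). The primary granule list was met by 61.1%, 42.3% and 50.8% against 37.9%, 74.6% and 41.7%, with the widest spread among the Nlrp3-/- libraries. The number of lists without overlap was 6, 7, 9 and 8 when the first wild-type, the second wild-type, the third wild-type or the second Nlrp3-/- library was left out, in which case the smaller group was 2 libraries.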

How the data were processed

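Droplet libraries (10x Chromium 3′) of pooled entheses at 7 dpi were analysed, 3 wild-type and 3 Nlrp3-/-, grouped by their titles. The authors deposited raw matrices of UMI counts for all barcodes, unnormalised. The submitters' processing notes name Cell Ranger 2.1.1 and mm10, whereas the file headers name Cell Ranger 4. Members, gene lists and named genes were chosen with earlier results of these data known. Barcodes were filtered and selected as stated in the report, no doublet was removed, and Scrublet scores in scanpy 1.11.5 served for an alternative. Levels are UMIs per 1e+06 UMIs of the cells summed (CPM).

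Progenitor counts were summed per library (366075 to 2193498 UMIs) and tested in edgeR 4.0.16 (R 4.3.3) with TMM scaling, filterByExpr and the quasi-likelihood test, without covariates, with a threshold of 0.05 after Benjamini-Hochberg adjustment. Each SE printed with an edgeR fold change is the absolute log2 fold change divided by the square root of the test's F statistic. The procedure was also run on simulated counts with known fold changes and a common dispersion of 0.0357 for all genes. That setting holds no sums carried by a few cells, so it does not cover genes such as Pf4, and nothing is read from it here. Shares were compared by exact two-sided permutation over libraries (20 assignments). Named between genotypes were called genes without overlap and with at least 50 CPM in the higher group, not predicted genes, at most 10 in each direction, the list genes, and Nlrp3 and the sex-linked genes. Named as leading genes were the 20 with the largest median ratio among genes of at least 50 CPM in every library. DESeq2 1.42.0, RLE scaling, no filter, a replicate block, a stricter gate, thinning, doublet removal and leaving out libraries were alternatives. Intervals and floors (3 UMIs) cover counting error only.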

Additional observations from a re-analysis of the deposited data

How the results depend on the processing

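The log2 ratio of the progenitor share stayed positive under every alternative that gave a value except that it reversed to -0.40 without the second Nlrp3-/- library (range when 1 library was left out -0.40 to 1.68). Applying the rule after thinning to 1000 UMIs left 1 cell and gave no ratio. The number of genes called, 13, became 215 without a filter on low counts, 8 with a replicate block, 4 with at least 2 UMIs each of Kit and Cd34, 1 with cells thinned to 1000 UMIs and 8 without the highest doublet scores. It became 6 without the deepest 10% of cells, an alternative chosen after seeing the data, as was leaving out shared barcodes (13). Leaving out 1 library gave 10 to 51. All 8, 4, 1, 8 and 6 calls under the block, the stricter gate, thinning, the doublet scores and the deepest 10% were among the 13. DESeq2 called 19, of which 4 were shared, with no adjusted p for 5403 genes. List genes called, 5 at first, were 40 without the filter, 2 with the stricter gate, 1 thinned, 3 without the highest doublet scores, 2 with DESeq2 and 5 to 9 with 1 library left out (8 without the second wild-type library and 9 without the second Nlrp3-/- library). Lists whose shares did not overlap, 3 at first, were 7 at 1 UMI of the list, 5 without the highest doublet scores, 2 at 4000 UMIs, 3 without thinning, 3 with the stricter gate and 3 to 9 with 1 library left out. The sex-linked list was among them in all 11 alternatives, the monocyte list in 8 and the megakaryocyte list in 6, both in each of the 6 that left out a library. The Mpo ratio of 2.36 to other Ptprc-positive barcodes was 2.14 to 2.40 under the alternatives run for it. The replicate numbers gave no sign of a pairing. After the group mean of each gene was subtracted, the deviations of same-numbered libraries correlated at -0.153, -0.184 and -0.0787. The log CPM of these libraries themselves correlated at 0.868, 0.915 and 0.950. The block gave an exact p of 1 for the share, and under it Lgals1 and Uqcrq had an adjusted p of 0.1 in edgeR (6.7e-11 to 0.317 and 1.4e-07 to 0.317 over other settings). None of the 13 called genes reversed, and list genes that were not called were not followed across the alternatives. The causes of these changes were not tested. Genes of low level in the 18 to 118 cells per library were left out by the count filter, without which 15987 genes were tested.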

Other observations

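Some genes stood apart from the lists they belong to. Nkg7, a granule protein best known from cytotoxic lymphocytes, was 275, 435 and 225 CPM in wild-type and 180, 418 and 243 CPM in Nlrp3-/- progenitors. Its median log2 ratio to the other Ptprc-positive barcodes was 1.53, and it was the 1 gene of the 8 in the T and NK list that was higher in every library. Egfl7, an endothelial secreted factor, had a ratio of 0.74 and was the 1 of 8 endothelial genes that was higher in every library. Ramp1, a partner of the receptor for the neuropeptide CGRP, was among the 20 leading genes (1.89), with 404 to 541 CPM over the 6 libraries. These values are descriptions, since the cells were chosen on their transcripts.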
